A study of Rattus norvegicus with 210 samples.

Results

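The comparison described here is that of the preoptic area (POA) of female rats at postnatal day (PND) 22 after perinatal exposure to ketoconazole (KTZ) at 3 mg/kg bw/day, the group K3, with that of rats exposed to vehicle, the control group. Its members were chosen by the labels alone: the 5 libraries of the POA marked as PND22 and KTZ 3 and the 5 marked as PND22 and control, 10 of the 210 libraries of the series. The series covers the POA and the mediobasal hypothalamus (MBH) of Sprague-Dawley rats at 3 ages, in 7 groups of 5 libraries: control, KTZ at 3, 6 and 12 mg/kg bw/day (K3, K6 and K12) and diethylstilbestrol (DES), a synthetic estrogen, at 3, 6 and 12 µg/kg bw/day (D3, D6 and D12). Dams received the compound in corn oil, or corn oil alone, by gavage from gestation day 7 until the day of birth and again in lactation up to PND22, so the offspring were exposed through the placenta and the milk. The rats are numbered in the labels, but their litters are not given there, so p-values measure the spread between these libraries. Messenger RNA was sequenced in stranded libraries, and a gene's level is given below in CPM, its count scaled to the total count of the library.

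Ketoconazole is an azole antifungal that blocks cytochrome P450 enzymes, among them lanosterol demethylase (Cyp51) of sterol synthesis and several enzymes that make steroid hormones. The POA lies at the front of the hypothalamus. In rats it holds most cell bodies of the neurons that make gonadotropin-releasing hormone (GnRH) and many neurons with receptors for sex steroids, through which the gonads act on reproduction. The question of the comparison was whether the lowest dose of KTZ changed the transcriptome of this region just before puberty.

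Between 12601314 and 15521703 reads were counted on genes in the control libraries (median 13111764) and between 14986129 and 19554963 in the K3 libraries (median 17438299). The K3 libraries were deeper by 3256319.2 reads on average (exact permutation test over 252 splits, two-sided, p = 0.0397), with an overlap of the ranges. Control replicate 4 stood apart from the other control libraries. Transcripts typical of the mammillary body and posterior hypothalamus (10 genes, 2 of them above the filter on low counts) summed to 58.57 CPM in it, against 3.801 to 5.262 CPM in the other control libraries and 3.484 to 5.448 CPM in K3. Foxb1, a mammillary transcription factor, reached 10.95 CPM in it and 1.739 to 3.966 CPM in the other 4. Lmx1a, another such factor, reached 15.24 CPM there and stayed under 1 CPM in the other 4. Genes typical of the mediobasal and lateral hypothalamus (18 genes, 12 above the filter) summed to 1707 CPM in that library against 71.26 to 107.5 CPM in the others, with Pmch, the precursor of melanin-concentrating hormone, at 1400 CPM. Markers of the POA and anterior hypothalamus (24 genes, all above the filter) summed to 1051 CPM in it, against 1587 to 1969 CPM in the other control libraries and 1629 to 1846 CPM in K3. That list is not specific to the POA, and it summed to 983.8 to 1256 CPM in the MBH control libraries of this age. The count of genes called in K3 is therefore given with and without control replicate 4, and so are the counts of most lists.

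In all, 285 of the 14335 genes tested passed an adjusted p-value of 0.05, with 99 higher and 186 lower in K3, which is 1.99% of the genes tested, 0.691% higher and 1.3% lower (edgeR quasi-likelihood test, Benjamini-Hochberg adjustment). Such genes are called higher or lower below. Without control replicate 4, 279 of 14429 genes were called (92 higher, 187 lower, which is 1.93% in all, 0.638% higher and 1.3% lower), and 208 genes were called both with and without it. The changes were small. The median log2 fold change was 0.32 among the genes called higher and -0.36 among those called lower, and 9 called genes changed by 1 or more on the log2 scale. The median over all genes tested was -0.0031. Most called genes were well expressed, with 214 of 285 at a mean log2 CPM of 5 or more. In 234 of the 285 the CPM of the 5 K3 libraries did not overlap that of the 5 control libraries. Over all genes tested, 4.7% did not overlap with K3 higher and 1.51% with K3 lower. Called genes were picked by p-values from the same libraries, so their separation is no further evidence. The balance of higher and lower calls depended on scaling between libraries: with library totals alone, in place of TMM factors, 287 genes were called higher and 115 lower, and the median over all genes moved to 0.0431.

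**Figure D1:**
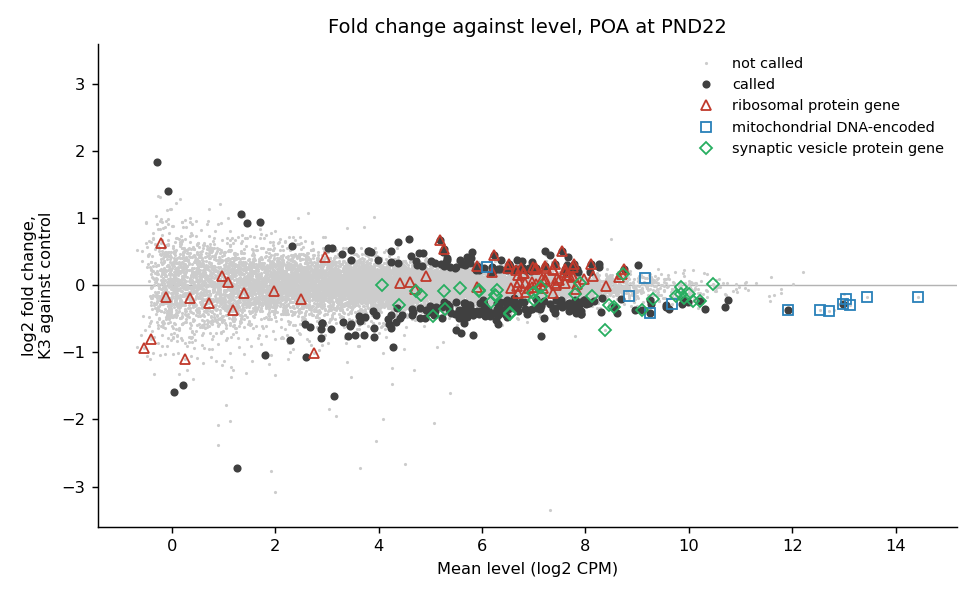
Each point is 1 of the 14335 genes tested in the POA at PND22; the horizontal axis gives the mean level (log2 CPM) and the vertical axis the log2 fold change of K3 against control. Dark points are the 285 called genes, which lie mostly between -1 and 1; triangles mark ribosomal protein genes, squares transcripts of mitochondrial DNA and diamonds synaptic vesicle protein genes.

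The number of calls changed strongly when single libraries were left out. Leaving out control replicate 3 left 50 calls and control replicate 5 left 115, while leaving out K3 replicate 1, 2, 4 or 5 left 44, 47, 72 and 42. Leaving out K3 replicate 3 raised the number to 622. In all 10 of these fits 35 genes were called, 10 higher (among them Rps28, Rpl19, Rpl22l1, Rps23, Mt3, H2az1 and Cyb561) and 25 lower (among them Cdk5r2, Cacng7, Rbfox3, Nrgn, Chga, Rab3a, Nudc and Calm2).

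**Figure D2:**
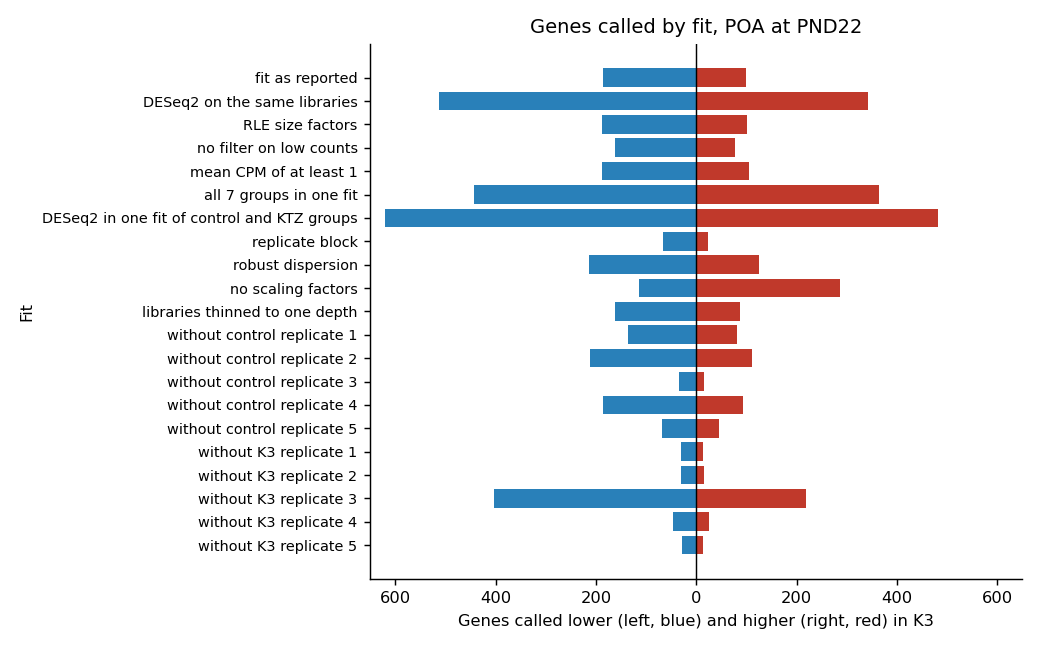
Bars give the number of genes called lower (left, blue) and higher (right, red) in K3 against control in the fit as reported (186 and 99) and in each alternative fit. The numbers range from 42 without K3 replicate 5 to 1101 with DESeq2 over the control and KTZ groups, and the balance turns towards higher calls only without scaling factors.

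The genes of cytosolic ribosomal proteins, which build the subunits of the ribosome, formed the list with the most genes called higher. This list was collected by gene symbol after its members had been seen among the calls. It held 93 gene identifiers under 84 symbols, and 79 identifiers passed the filter on low counts. Of these 79, 17 were called higher and 0 lower, against 0.691% of all genes tested, and their median log2 fold change was 0.10, with 56 positive. Without control replicate 4, 19 of 80 were called higher and 0 lower, and all 17 remained called. Leaving out control replicate 1, 3 or 5 left 10, 6 and 10 called higher, and leaving out K3 replicate 1, 2, 4 or 5 left 6, 6, 8 and 4. Leaving out K3 replicate 3 gave 22 higher and 1 lower. Near-identical copies of ribosomal protein genes exist in the genome, and how reads that fit several places were counted is not stated, so the values of single members are uncertain.

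The promoters of 4 genes are printed here. Rps28, Rps3 and Rpl19 are ribosomal protein genes called higher, and Cdk5r2, called lower, had the smallest p-value of all genes. Each run reads 5′ to 3′ from 100 bases before to 20 bases after the annotated start in RefSeq (build GRCr8), and capitals mark matches, on either strand, to the ETS factor core CTTCCG, the GC box GGGCGG or the TATA core TATAAA. The locations are chr7:15311314-15311433 on the minus strand for Rps28, chr1:163195757-163195876 on the minus strand for Rps3, chr10:83518964-83519083 on the plus strand for Rpl19 and chr9:83864822-83864941 on the plus strand for Cdk5r2.
Rps28: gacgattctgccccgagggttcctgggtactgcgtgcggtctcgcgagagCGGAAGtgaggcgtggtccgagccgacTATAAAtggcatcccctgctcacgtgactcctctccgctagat
Rps3: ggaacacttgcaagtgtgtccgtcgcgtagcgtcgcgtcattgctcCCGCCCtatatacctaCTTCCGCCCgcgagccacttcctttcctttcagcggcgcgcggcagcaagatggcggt
Rpl19: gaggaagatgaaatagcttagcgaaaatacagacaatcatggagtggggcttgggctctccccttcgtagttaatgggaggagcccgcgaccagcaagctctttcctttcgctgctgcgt
Cdk5r2: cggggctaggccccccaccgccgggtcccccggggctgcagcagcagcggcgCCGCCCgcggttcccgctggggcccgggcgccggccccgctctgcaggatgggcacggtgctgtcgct

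The Rps28 promoter held the ETS core and the TATA core, that of Rps3 the ETS core overlapping a second GC box, and that of Rpl19 none of the 3 motifs. Over the whole RefSeq window of 250 bases before to 50 bases after the start, the ETS core was found in 36 of the 63 ribosomal protein gene identifiers that could be matched (57.1%), in 8 of the 13 matched members called higher (61.5%), in 29.3% of the 10930 matched genes tested and in 16.6% of all 33469 promoters. Among all called genes it was found in 31 of 76 matched genes called higher (40.8%) and in 33 of 133 called lower (24.8%). The GC box was found in 54% of the matched ribosomal protein genes and in 61.7% of the matched genes tested, and the TATA core in 11.1% and 6.58%. Fewer than 80% of the called genes could be matched, so base composition was not compared. Identifiers that share a symbol, such as those of Rpl21, can have been given the same promoter, so a promoter can count more than once.

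Rps28, a protein of the small subunit, was the ribosomal protein gene with the smallest p-value. It was measured at 27.85, 30.43, 33.02, 30.39 and 31.38 CPM in control replicates 1 to 5 and at 47.05, 49.56, 46.44, 41.17 and 47.13 CPM in K3 replicates 1 to 5. The groups did not overlap, and control replicate 4 lay in the middle of its group. The log2 fold change was 0.55 ± 0.068 (SE, n = 5 and 5, adjusted p = 0.00345), and the adjusted p was 0.0103 without control replicate 4.

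Rpl19, of the large subunit, was measured at 140.8, 157.3, 150.4, 147.4 and 158.9 CPM in control and at 251.6, 252.8, 194.6, 203.1 and 205.3 CPM in K3. All K3 libraries exceeded all control libraries, with K3 replicates 1 and 2 the highest. The log2 fold change was 0.51 ± 0.079 (SE, adjusted p = 0.0109). Rpl22l1, a paralog of the ribosomal protein Rpl22, had the largest change of the called members, from 22.35 to 29.89 CPM in control and from 38.1 to 51.73 CPM in K3 (log2 fold change 0.67 ± 0.094, adjusted p = 0.00692).

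Of the other 14 called members, Rps3, Rps18, Rps21, Rps23, Rps25 and Rps27 of the small subunit and Rpl3, Rpl10, Rpl24, Rpl34 and Rpl36a of the large one changed by 0.24 (Rpl3) to 0.45 (Rps21) on the log2 scale. Rpl3, the most abundant of the called members, lay between 376.5 and 403.3 CPM in control and between 433.2 and 485.4 CPM in K3 (log2 fold change 0.24 ± 0.045, adjusted p = 0.0222). In 25 of the 79 genes the K3 libraries all exceeded the control libraries in CPM, against 4.7% of all genes tested. All called members are among the 25, so this separation is no further evidence. TMM scaling, not applied to CPM, lowers K3 relative to control (factors 0.973 to 0.9985 in control and 1.009 to 1.023 in K3).

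Summed over all 93 identifiers, ribosomal protein transcripts made up 8838, 9716, 9240, 9824 and 9166 CPM in control replicates 1 to 5 and 10650, 10550, 10390, 10910 and 10780 CPM in K3 replicates 1 to 5. The 2 groups did not overlap, and the highest control value was that of replicate 4. The K3 libraries were also the deeper ones. With all 10 libraries thinned to the same depth, 15 of 76 ribosomal protein genes were called higher and 0 lower, among 249 called genes (86 higher, 163 lower). In the other groups of the POA at this age the sum was 9982 to 11210 CPM in K6, 10260 to 10680 CPM in K12, 9054 to 10390 CPM in D3, 8656 to 9524 CPM in D6 and 9767 to 10850 CPM in D12. D12 replicates 1 to 5 held 9767, 10570, 10850, 10750 and 10800 CPM, so that replicates 2 to 5 lay within the K3 range.

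**Figure D3:**
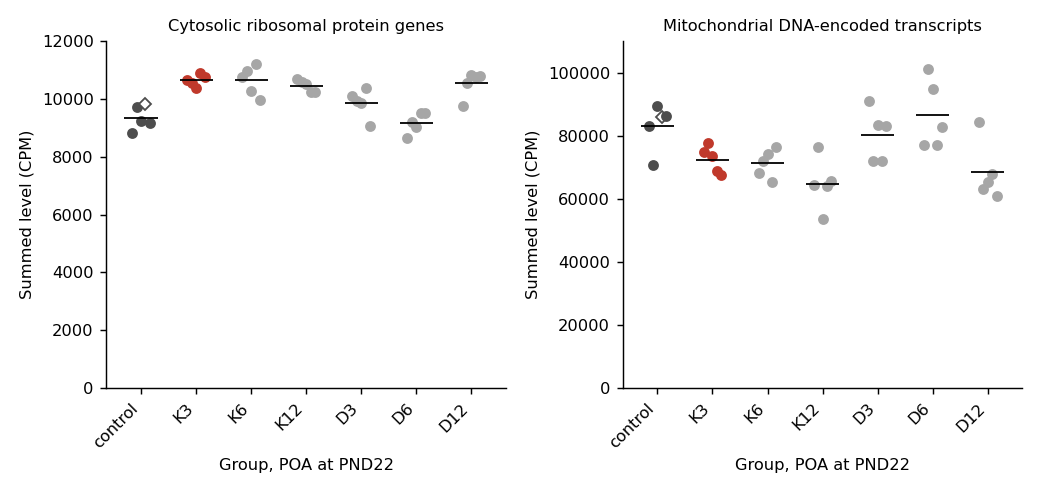
Summed level in CPM of cytosolic ribosomal protein genes (left) and of transcripts of mitochondrial DNA (right) in each library of the POA at PND22, by group; lines are group means and the open diamond is control replicate 4. The K3 libraries lie between 10390 and 10910 CPM on the left, above all control libraries, and between 67460 and 77880 CPM on the right, where the groups overlap.

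Proteins of signal recognition and translocation at the endoplasmic reticulum formed a further list drawn up after the calls had been seen. Of its 21 tested members 4 were called higher and 0 lower, with and without control replicate 4 (median log2 fold change 0.069), against 0.691% of all genes called higher. The number called higher was 0 without K3 replicate 1 or 5, 1 without control replicate 3 or K3 replicate 2 or 4, and 2 without control replicate 5. Sec61g, a subunit of the translocation channel, was measured at 19.44 to 26.69 CPM in control and 30.3 to 34.52 CPM in K3, with no overlap (log2 fold change 0.48 ± 0.089, adjusted p = 0.0222). Ssr2, of the translocon-associated complex, rose by 0.27 ± 0.044 (adjusted p = 0.0137), Spcs3, of the signal peptidase, by 0.25 ± 0.056 (adjusted p = 0.0393) and Derl1, which moves misfolded proteins out of the reticulum, by 0.24 ± 0.051 (adjusted p = 0.0357).

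Other genes were also called higher in all the fits that left out a library. Mt3, a brain metallothionein that binds zinc, was measured at 115.3, 131.1, 142.1, 119 and 148.4 CPM in control and at 185.8, 190.8, 172.8, 190.2 and 189.3 CPM in K3. The groups were clearly apart (log2 fold change 0.45 ± 0.073, adjusted p = 0.012). H2az1, a variant histone, rose by 0.35 ± 0.055 (adjusted p = 0.0107) and Cyb561, an electron carrier of secretory vesicles, by 0.34 ± 0.051 (adjusted p = 0.00952). Tmx1, a thioredoxin-like protein of the endoplasmic reticulum, and Pnck, a calmodulin-dependent kinase, were named after their values were seen and rose by 0.33 and 0.31 on the log2 scale. The unnamed locus LOC100911847 rose by 0.52 ± 0.067 (adjusted p = 0.00421).

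Outside that set, Txn1, the cytosolic thioredoxin, rose by 0.40 ± 0.068 (adjusted p = 0.0139) and Ngb, a globin of neurons, by 0.41 ± 0.084 (adjusted p = 0.0308); both were chosen after their values were seen. The larger changes belonged to genes of low level and were less secure. Zfp474, a zinc finger gene, had the largest fold change of the named genes called higher, at 0.9227 to 2.135 CPM in control and 2.301 to 4.129 CPM in K3 (log2 fold change 1.07 ± 0.25), and its adjusted p was 0.0731 without control replicate 4. S100a13, a calcium-binding protein of the S100 family, rose by 0.64 ± 0.14 (adjusted p = 0.035), from 11.47 to 20.21 CPM in control to 20.29 to 28.16 CPM in K3, so that the groups nearly touched. Ago4, a protein of the small RNA pathway, Pcgf5, of a Polycomb complex, Adi1, of methionine salvage, and Ccdc134, D430019H16Rik, Eef1akmt2 and Zbed5 rose by 0.50 to 0.59, and Ago4, Ccdc134, D430019H16Rik and Zbed5 were not called without control replicate 4 (adjusted p 0.0533 to 0.0708). Rbbp4, a histone chaperone of chromatin complexes, was the only member of the 47 lists taken from the study and general knowledge that was called higher (0.28 ± 0.066, adjusted p = 0.048), and it lost the call without control replicate 4 (adjusted p = 0.0656).

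**Figure D4:**
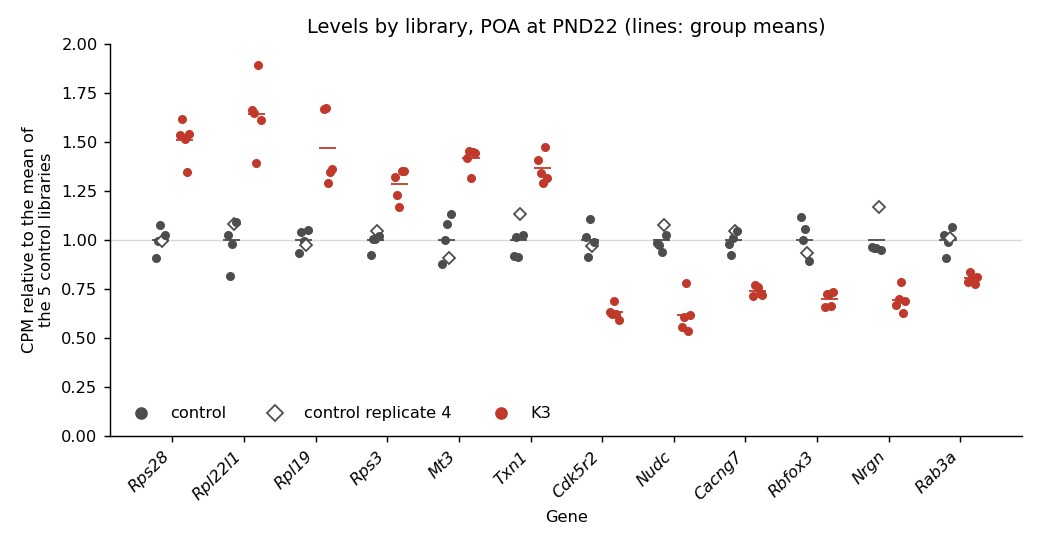
CPM of 12 genes called in the POA at PND22, each relative to the mean of the 5 control libraries; grey points are control libraries (open diamond, replicate 4), red points K3 libraries, and lines group means. The 6 genes on the left lie above and the 6 on the right below the control libraries in all 5 K3 libraries.

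Among genes called lower, Cdk5r2, the p39 activator of the neuronal kinase Cdk5, had the smallest p-value. It was measured at 60.12, 54, 65.32, 57.3 and 58.63 CPM in control and at 37.48, 36.91, 40.77, 36.7 and 35.05 CPM in K3. The highest K3 library stood well below the lowest control library. The log2 fold change was -0.71 ± 0.065 (adjusted p = 0.000672), and without control replicate 4 the adjusted p was 0.00219.

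Cacng7, an auxiliary subunit of glutamate receptors of the AMPA type, was measured at 165.6, 155.8, 170.3, 176.3 and 176.3 CPM in control and at 120.8, 129.8, 128.1, 123.6 and 121.9 CPM in K3. The groups did not overlap (log2 fold change -0.48 ± 0.05, adjusted p = 0.00153). Rbfox3, the splicing factor known as the neuronal marker NeuN, lay between 52.31 and 65.49 CPM in control and between 38.46 and 42.88 CPM in K3 (log2 fold change -0.56 ± 0.066, adjusted p = 0.00345). In bulk tissue, fewer cells of a type and less RNA per cell cannot be told apart.

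Nrgn, neurogranin, which binds calmodulin at synapses, was measured at 90.58, 89.69, 89.77, 109.5 and 89.04 CPM in control and at 62.59, 65.62, 73.73, 58.66 and 64.35 CPM in K3. Control replicate 4 was the highest library, and the other 4 control libraries were nearly equal and still above all K3 libraries. The log2 fold change was -0.57 ± 0.071 (adjusted p = 0.00345) and -0.51 without control replicate 4 (adjusted p = 0.00655). Chga, chromogranin A of secretory granules, fell from 315.6 to 380.1 CPM in control to 259.4 to 285.1 CPM in K3 (log2 fold change -0.40 ± 0.053, adjusted p = 0.00456).

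Of 21 calcium-binding and EF-hand genes tested, 6 were called lower and 0 higher, with a median log2 fold change of -0.14 over the list, and 4 were called lower without control replicate 4. Over all genes tested, 1.3% were called lower. The list had 2 called lower without control replicate 3 or 5 or K3 replicate 2, 4 or 5, and 3 without K3 replicate 1. The 6 were Nrgn, 2 genes listed under the symbol Calm2 for calmodulin, Hpcal1, Cabp1 and Pvalb. The first Calm2 gene (ENSRNOG00000030871) lay between 534.8 and 573.7 CPM in control and between 409.5 and 466.5 CPM in K3 (log2 fold change -0.36 ± 0.046, adjusted p = 0.00352). The second (ENSRNOG00000016770) fell by 0.22 on the log2 scale (adjusted p = 0.0398, and 0.0533 without control replicate 4), and because the 2 share a symbol their reads may not be fully separate. Hpcal1, a hippocalcin-like sensor, fell by 0.27 (adjusted p = 0.0247). Cabp1, a calcium sensor of channels, was measured at 15.54, 12.97, 17.99, 26.19 and 20.17 CPM in control and at 10.59 to 12.45 CPM in K3 (log2 fold change -0.77 ± 0.16, adjusted p = 0.0306).

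Of 37 synaptic vesicle genes tested, 3 were called lower and 0 higher, against 1.3% of all genes called lower, and 4 had a positive fold change, against 49.3% of all genes tested, and the median was -0.15. Rab3a, the small GTPase of vesicle release, was measured at 621.5, 551.1, 599.3, 612.4 and 648 CPM in control and at 478.1, 506.1, 492.5, 469.7 and 491.7 CPM in K3, without overlap (log2 fold change -0.36 ± 0.049, adjusted p = 0.00615). Syn1, synapsin, lay between 363.7 and 443.2 CPM in control and between 324.6 and 359.3 CPM in K3 (-0.32 ± 0.057, adjusted p = 0.0172). Vamp2, the vesicle SNARE synaptobrevin, fell by 0.24 ± 0.043 (adjusted p = 0.0175). Without control replicate 4, 6 genes of the list were called lower, and 7 without control replicate 2, while 1 was called lower without K3 replicate 1 or 5.

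A list of genes of the axonal cytoskeleton and its transport was made after the calls had been seen. Of its 40 tested members, 10 were called lower and 0 higher, against 1.3% of all genes called lower, with a median log2 fold change of -0.13. The number called lower was 11 without control replicate 4, but 3 without control replicate 3, 6 without K3 replicate 4, 2 without K3 replicate 1 and 1 without K3 replicate 2 or 5. In 8 of the 40, 7 of the called genes and Nefm, the K3 libraries all lay below the control libraries in CPM, against 1.51% of all genes tested. As 7 of the 8 were called, this separation is no further evidence. Besides Cdk5r2 the called genes were the kinesin light chains Klc1 and Klc2, the dynein light chain Dynlrb1, the tubulins Tubb3 and Tubb4a, the heavy neurofilament Nefh, the growth-cone proteins Map1b and Basp1, and the actin-binding Pfn1. Tubb4a, an abundant tubulin of neurons and oligodendrocytes, lay between 1267 and 1584 CPM in control and between 1060 and 1196 CPM in K3 (-0.36 ± 0.064, adjusted p = 0.0194). Klc2 lay between 218.1 and 275.5 CPM in control and between 177.9 and 209.7 CPM in K3 (-0.41 ± 0.071, adjusted p = 0.0157).

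Further genes called lower had other functions. Nudc, a dynein-associated chaperone, was measured at 15.78, 15.63, 15.03, 17.3 and 16.43 CPM in control and at 8.898, 9.744, 12.48, 8.602 and 9.896 CPM in K3. K3 replicate 3 was the nearest to control, still without overlap (log2 fold change -0.74 ± 0.11, adjusted p = 0.00815). Gtf2f1, a subunit of the general transcription factor TFIIF, fell by 0.35 (adjusted p = 0.00345), and Dvl3, a scaffold of Wnt signaling, fell by 0.41 (adjusted p = 0.00345). Of 31 genes of ubiquitin and its conjugating enzymes, a list also made afterwards, 5 were called lower (Ubb, Ube2ql1, Ube2q1, Ube2r2 and Ube2s) and 0 higher, against 1.3% of all genes called lower, at a median of -0.038. That median was slightly positive, at 0.0076, without scaling factors. The number called lower was 4 without control replicate 4, 3 without control replicate 1, 2 without K3 replicate 4, 1 without control replicate 3 or 5 or K3 replicate 2 or 5, and 0 without K3 replicate 1. The genes called lower in all 10 fits that left out a library also included, named after their values were seen, Prrt1, a partner of AMPA receptors (log2 fold change -0.52), Hspb6, a small heat shock protein (-0.49), Atxn2, an RNA-binding protein (-0.42), and Atp1b2, a sodium pump subunit of glia (-0.35). Bean1, Mn1, Prr36, Tcf7l1, a transcription factor of the Wnt pathway, and Ubald2 fell by 0.65 to 0.78 on the log2 scale.

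Of 34 potassium channel genes tested, 4 were called lower and 0 higher (median -0.073), against 1.3% of all genes called lower. The number called lower was 2 without control replicate 4, 5 without control replicate 2 or K3 replicate 3, and 0 without control replicate 3 or 5 or K3 replicate 1, 2, 4 or 5. Kcnc1 encodes a channel that lets neurons fire at high rates, and Kcna1 and Kcna2 channels of the axon. Kcnc1 was measured at 116.5, 97.93, 126.2, 107.2 and 131.1 CPM in control and at 86.47, 97.95, 91.55, 89.97 and 94.32 CPM in K3. The ranges met at the lowest control library (log2 fold change -0.38 ± 0.076, adjusted p = 0.0285). Pvalb, parvalbumin, the calcium buffer of fast-spiking interneurons, was measured at 4.971, 10.68, 10.48, 21.98 and 17.39 CPM in control and at 7.978, 3.162, 4.337, 2.925 and 3.019 CPM in K3. The ranges overlapped through control replicate 1 and K3 replicate 1, and the highest library was control replicate 4. The log2 fold change was -1.65 ± 0.37 (adjusted p = 0.0419), and without control replicate 4 it was -1.39 (adjusted p = 0.0607).

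A list of genes of fast-spiking neurons, drawn up after the calls had been seen, had 7 of 23 members called lower and 0 higher, against 1.3% of all genes called lower, with a median of -0.36, and 5 called lower without control replicate 4. Besides these channels and Pvalb it held Nefh and Hapln4, a link protein of perineuronal nets. Nefh was measured at 138.5, 123.7, 194.9, 161.3 and 254 CPM in control and at 105.7, 105.2, 113, 108.9 and 104.4 CPM in K3. The control libraries were widely spread and the K3 libraries nearly equal (-0.75 ± 0.16, adjusted p = 0.031). Summed over the list, control replicates 1 to 5 held 2838, 2852, 3498, 2958 and 3865 CPM and the K3 libraries 2586 to 2682 CPM. Markers of the septum and diagonal band, which border the POA (10 genes, all above the filter), summed to 240.4, 207.9, 425.3, 82.77 and 513 CPM in control replicates 1 to 5 and to 136.5 to 228.3 CPM in K3. Control replicates 3 and 5 were highest in both sums, and the part of the septal genes in the result was not tested. Among the 10 septal markers 0 were called, with 4 at an unadjusted p under 0.05. Without control replicate 4, 2 of them were called lower by edgeR, against 1.3% of all genes, and 4 by DESeq2. In that fit 7 of them had an unadjusted p under 0.05. The number of the fast-spiking list called lower was 0 without control replicate 3 or K3 replicate 2, 4 or 5, 1 without control replicate 5 or K3 replicate 1, and 11 without control replicate 2.

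Bcl11b, a transcription factor of striatal and cortical neurons, followed the same libraries, at 4.971, 4.576, 10.41, 7.936 and 11.79 CPM in control and at 3.42 to 4.645 CPM in K3 (log2 fold change -1.07 ± 0.25, adjusted p = 0.0459). Its groups overlapped slightly, and its adjusted p was 0.0587 without control replicate 4. Markers of cortex and hippocampus had 2 of 9 called lower, Bcl11b and Nrgn, and 1 without control replicate 4, against 1.3% of all genes. Their sum was 353.3 to 454.6 CPM in control and 389.9 to 435.7 CPM in K3. Of 21 voltage-gated calcium channel genes, with their auxiliary subunits and relatives, 2 were called lower and 0 higher (median -0.11), against 1.3% of all genes called lower. The number called lower was also 2 without control replicate 4, and 1 without control replicate 1, 3 or 5 or K3 replicate 1, 2, 4 or 5. In the fit of all libraries the called genes were Cacng7 and Cacng3, another subunit of the same family (-0.44 ± 0.1, adjusted p = 0.0459). Shank1, a scaffold of the postsynaptic density, fell by 0.43 on the log2 scale (adjusted p = 0.0289), with K3 replicate 3 inside the control range.

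**Figure D5:**
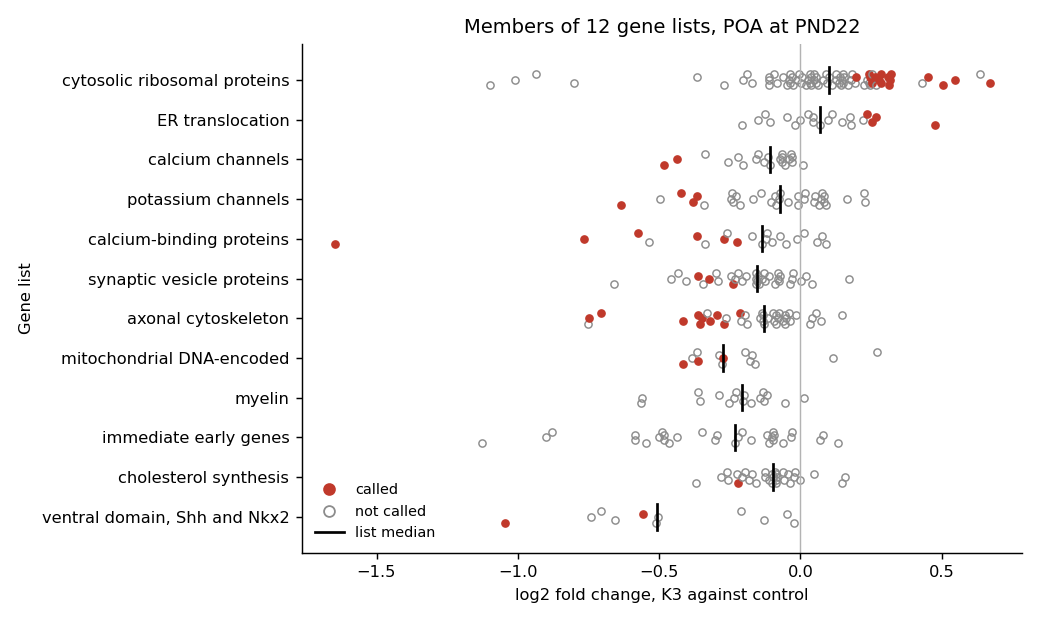
Each point is a gene of 1 of 12 lists, placed by its log2 fold change in K3 against control (horizontal axis); filled points were called, open points were not, and bars are list medians. The called ribosomal protein and endoplasmic reticulum genes lie to the right of 0, and all called genes of the other lists shown lie to the left, while the myelin and immediate early gene lists have negative medians (-0.205 and -0.232) without a called gene.

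Transcripts of mitochondrial DNA encode subunits of the respiratory chain. Of 13 such transcripts, 3 were called lower and 0 higher, against 1.3% of all genes called lower. A positive fold change was found in 2, against 49.3% of all genes tested, and the list median was -0.28. Mt-co2, a subunit of cytochrome c oxidase, was measured at 8749, 8074, 8471, 9589 and 8738 CPM in control and at 7277, 7838, 7094, 8256 and 6735 CPM in K3. The ranges overlapped through K3 replicate 4 (log2 fold change -0.28 ± 0.061, adjusted p = 0.0393). Mt-nd5 (-0.36 ± 0.084, adjusted p = 0.0451) and Mt-atp8 (-0.42 ± 0.094, adjusted p = 0.0419) were the other two. Without control replicate 4, 0 of the 13 were called, with a median of -0.24, by the same edgeR test, with 8 at an unadjusted p under 0.05 and 6 called lower by DESeq2. The number called by edgeR was also 0 without control replicate 1 or 3 or K3 replicate 1, 2 or 5, 1 without control replicate 5 or K3 replicate 4, and 8 without control replicate 2. In total these transcripts made up 83020, 70610, 89370, 86030 and 86340 CPM in control and 74860, 77880, 73470, 68810 and 67460 CPM in K3, so that control replicate 2 was as low as K3. In the POA at this age the sum was 65480 to 76620 CPM in K6 and 53460 to 76510 CPM in K12. It was 71870 to 91190 CPM in D3 and 77110 to 101200 CPM in D6. D12 replicates 1 to 5 held 84470, 63200, 65490, 67750 and 61040 CPM. Replicates 2 to 5 of D12 lay within or below the K3 range.

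Genes of the ventral neural tube and the Nkx2 domain pattern the hypothalamus. Of 11 tested, 2 were called lower and 0 higher, against 1.3% of all genes called lower. A positive fold change was found in 0 of them, against 49.3% of all genes tested, and the list median was -0.51. Without control replicate 4, 3 were called lower, 1 without control replicate 2 or 5, and 0 without control replicate 1 or 3 or K3 replicate 1, 2, 4 or 5. Shh, the secreted ventral signal, was measured at 9.389, 7.779, 8.898, 7.539 and 9.922 CPM in control and at 6.29, 6.259, 6.539, 4.76 and 6.765 CPM in K3. The groups did not overlap (log2 fold change -0.56 ± 0.13, adjusted p = 0.0444, and 0.0385 without control replicate 4). Nkx2-2, a transcription factor that Shh induces, was measured at 4.182, 5.873, 4.218, 5.714 and 2.835 CPM in control and at 2.046, 1.42, 3.27, 2.236 and 2.404 CPM in K3. K3 replicate 3 exceeded control replicate 5 (log2 fold change -1.04 ± 0.24, adjusted p = 0.0451, and 0.0712 without control replicate 4). Nkx2-2 is also made by oligodendrocyte precursors. Of 13 precursor markers tested it was the 1 called, against 1.3% of all genes called lower, with 1 positive fold change and a median of -0.22. The sum of these markers was 1211 to 1919 CPM in control and 1175 to 1560 CPM in K3.

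The genes on which KTZ is known to act, and those through which the POA controls reproduction, were tested by lists of their own. Of 28 genes of steroid synthesis and steroid receptors, 0 were called by edgeR (median -0.037), with 7 at an unadjusted p under 0.05 and 3 called by DESeq2. Of 35 genes of the GnRH network, 0 were called by edgeR (median -0.051), with 7 at an unadjusted p under 0.05 and 2 called by DESeq2. Of 12 genes known to respond to estrogen in this region, 0 were called by either tool, with 1 at an unadjusted p under 0.05. Over all genes, 2659 had an unadjusted p under 0.05 and DESeq2 called 856. Without control replicate 4, edgeR called 0 genes in the steroid, GnRH and estrogen lists. There 7, 8 and 2 genes had an unadjusted p under 0.05, against 2724 of all genes in that fit.

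Gnrh1, the precursor of GnRH itself, was measured at 3.472, 4.118, 5.207, 0.7936 and 7.86 CPM in control and at 9, 5.291, 8.074, 7.398 and 5.814 CPM in K3. The groups overlapped through control replicate 5, and replicate 4 was the lowest (log2 fold change 0.66 ± 0.36, adjusted p = 0.356, and 0.41 with adjusted p = 0.379 without it). Esr1, the estrogen receptor alpha, was measured at 35.82, 31.27, 21.75, 13.01 and 24.42 CPM in control and at 31.19, 30.65, 34.5, 36.59 and 31.92 CPM in K3. Its log2 fold change was 0.34 ± 0.19 (adjusted p = 0.365), and 0.18 without control replicate 4, the lowest library. Cyp19a1, the aromatase that makes estrogen in the brain, was measured at 2.604, 2.746, 2.373, 1.111 and 3.092 CPM in control and at 2.628 to 4.296 CPM in K3 (0.52 ± 0.24, adjusted p = 0.263).

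The progesterone receptor gene Pgr had a log2 fold change of 0.12 ± 0.14 (adjusted p = 0.681). The peptide genes Gal, Oxt and Avp had log2 fold changes of -0.066, 0.46 and 0.14 (adjusted p = 0.813, 0.688 and 0.886). Oxt and Avp, the hormones of magnocellular neurons, varied widely among control libraries, from 8.332 to 210.3 CPM and from 17.85 to 99.65 CPM. Kiss1, the peptide that drives GnRH neurons, lay between 0.2288 and 1.894 CPM in control and between 0.5161 and 1.535 CPM in K3 (adjusted p = 0.896). Mkrn3, which restrains puberty, had a log2 fold change of -0.064 (adjusted p = 0.892), and Pparg, with at most 6 counts in any of the 10 libraries, did not pass the filter.

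Of 32 genes of cholesterol synthesis and its regulators, Sc5d alone was called, lower, against 1.3% of all genes called lower. A positive fold change was found in 3, against 49.3% of all genes tested (median of the list -0.097). The number called lower was also 1 without control replicate 4. It was 0 without control replicate 2, 3 or 5 or K3 replicate 1, 2, 4 or 5, and 3 without control replicate 1. Sc5d, a desaturase of the late steps, was measured at 258.9, 275.6, 267.1, 256.3 and 273.8 CPM in control and at 237.5, 227.8, 231.4, 250.2 and 232 CPM in K3, without overlap (log2 fold change -0.22 ± 0.048, adjusted p = 0.0359, and 0.0339 without control replicate 4). Cyp51, the azole target, lay between 203.2 and 357.8 CPM in control and between 225.8 and 269.7 CPM in K3 (-0.18 ± 0.12, adjusted p = 0.472).

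The study chose groups of genes on its MBH libraries, so these are no independent evidence of a direction. In 7 of them (transcriptional and epigenetic control, GABAergic, calcium and glutamatergic signaling, neuropeptides and receptors, metabolism, and delayed puberty) 1 gene, Cacng3 of the calcium list, was called lower by edgeR in the POA of K3 and 0 higher, and its adjusted p was 0.0578 without control replicate 4. At an unadjusted p under 0.05 each group held 0 to 4 genes. DESeq2 called 1 gene, lower, in each of the transcriptional and epigenetic, GABAergic, calcium and delayed puberty groups. Of 31 activity-regulated immediate early genes, 0 were called by edgeR, with 9 at an unadjusted p under 0.05 and 1 called by DESeq2. A positive fold change was found in 3, against 49.3% of all genes tested (median of the list -0.23). Without control replicate 4, edgeR called 0 of 32, with 14 at an unadjusted p under 0.05 and 2 called lower by DESeq2. Npas4, a transcription factor induced by neuronal activity, was measured at 1.657, 1.449, 4.086, 3.254 and 8.44 CPM in control and at 0.9205 to 2.684 CPM in K3 (adjusted p = 0.214). Control replicates 3 and 5 were again the highest. Of 17 myelin genes, 0 were called by either tool, with 3 at an unadjusted p under 0.05, and 1 had a positive fold change (median -0.21). Without control replicate 4, 0 of these genes were called by either tool, with 3 at an unadjusted p under 0.05. In CPM their sum ranged from 14840 to 30740 CPM in control and from 15600 to 23990 CPM in K3.

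Markers of other cells and regions were read in the same way. Of 10 tested genes of meninges and fibroblasts 0 were called by either tool, 0 had an unadjusted p under 0.05 and 0 had a positive fold change (median -0.41), with sums of 168.6 to 389 CPM in the control libraries other than replicate 4, 1042 CPM in replicate 4 and 149.1 to 862.8 CPM in K3. Of microglial markers 11 of 13 had positive fold changes (median 0.125), of endothelial markers 8 of 12 and of astrocyte markers 5 of 15. In each of these 3 lists edgeR called 0 genes and DESeq2 1, with 3, 2 and 2 at an unadjusted p under 0.05. Over all genes tested, 49.3% had a positive fold change. Without control replicate 4, edgeR called 1 microglial marker, higher, and 0 genes of the meningeal, endothelial and astrocyte lists.

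The other doses were compared with K3 directly. Between K6 and K3, 0 of 14502 genes were called by edgeR, with 780 at an unadjusted p under 0.05 and 1 called by DESeq2. Between K12 and K3, 0 of 14453 were called, with 1016 at an unadjusted p under 0.05 and 14 called by DESeq2. Of the 48 genes named here by rule that were called in K3 against control, the largest difference was 0.48 on the log2 scale between K6 and K3 and 1.08 between K12 and K3, the latter for Pvalb (adjusted p = 0.713). These tests do not show that the doses acted alike.

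Against the same 5 control libraries, which the comparisons therefore share, 602 of 14329 genes (4.2%) were called in K6 and 561 of 14315 (3.92%) in K12. The log2 fold change of Cdk5r2 was -0.71 in K3, -0.50 in K6 and -0.51 in K12. That of Rps28 was 0.55, 0.60 and 0.52, and that of Nudc -0.74, -0.99 and -0.97. Vamp2, at -0.24 in K3, had -0.11 in K6 (adjusted p = 0.166) and -0.064 in K12 (adjusted p = 0.455). Nefh had -0.75, -0.50 and -0.56, with adjusted p of 0.237 and 0.141 in K6 and K12. Over all genes 1.91% were called higher and 2.29% lower in K6, and 1.8% and 2.12% in K12. Of ribosomal protein genes, 19 of 79 were called higher and 1 lower in K6, and 13 of 80 higher and 1 lower in K12. Of mitochondrial transcripts, 3 of 13 were called lower in K6 and 7 of 13 in K12.

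In the MBH at the same age, 5735 of 14815 genes (38.7%) were called between K3 and control. The difference between the tissues in the effect of K3 was itself tested, and 4863 of 15115 genes (32.2%) were called. Of the 48 named genes called in the POA, 22 were among these. The POA and MBH libraries carry the same rat numbers, and this fit took them as independent. With the rat number as a block, 3867 genes were called. Same-numbered POA and MBH libraries correlated at -0.11 to 0.11 in their deviations from the group means (median -0.027). Without control replicate 4 of the POA and with no block, 4417 genes were called. Cdk5r2 had a log2 fold change of -0.71 in the POA and 0.10 in the MBH, a difference of -0.82 ± 0.16 (adjusted p = 0.00152). Cacng7 had -0.48 and 0.34 (difference -0.83 ± 0.11, adjusted p = 5.74e-05), and Nudc -0.74 and 0.42 (difference -1.17 ± 0.18, adjusted p = 0.000173). Rps28 had 0.55 and 1.12, and its difference did not pass the test (-0.59 ± 0.42, adjusted p = 0.286). Over the 80 ribosomal protein genes tested for this difference, 52 were called, all of them negative (POA minus MBH), against 17.3% of all genes tested, and in the MBH itself 63 of 79 were called higher, against 20.8% of all genes, at a median log2 fold change of 1.19. Their sum in the MBH was 10690 to 11370 CPM in control and 12690 to 34780 CPM in K3, so the K3 libraries of the MBH differed widely among themselves. Thalamus markers in the MBH summed to 408.2 to 506.5 CPM in control and 879.1 to 1237 CPM in K3, without overlap. Markers of the mediobasal and lateral hypothalamus overlapped there (1228 to 1909 CPM and 1060 to 2711 CPM). The part of such regional differences in the test between tissues was not tested.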

How the data were processed

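Per the labels and the study's methods, total RNA of the POA and MBH of female rats was made into stranded messenger RNA libraries, and the authors aligned the reads to Rnor_6.0 with STAR and counted them per Ensembl gene with featureCounts. They deposited 1 table of counts per tissue, whole numbers without normalization, with 32883 genes and 105 libraries each. Whether counting used the strand, and how reads that fit several places were treated, is not stated in the sources used here, so near-identical, overlapping and antisense genes are uncertain. No column of per-sample values was left without a sample.

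The test was that of edgeR 4.0.16 under R 4.3.3 (TMM scaling, filterByExpr at a minimum count of 10, quasi-likelihood test, two-sided, no fold threshold, Benjamini-Hochberg adjustment over all genes tested, adjusted p under 0.05), with only the compared groups in the fit. The steps were tested on simulated data, with changes larger than most of those reported here and in genes of high count. Recovery of changes as small as those reported was therefore not tested. Standard errors are the size of the log2 fold change over the root of the F statistic. CPM are counts relative to the library total, before TMM scaling. The difference between tissues was the interaction of tissue and KTZ 3 over the 4 groups at PND22, with no block for the rat number. Alternatives were DESeq2 1.42.0, other scaling and filters, other sets of libraries, each library left out in turn and a replicate block; scaling by totals alone and thinning to 1 depth were chosen after seeing the data.

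The groups and lists were chosen with earlier results of these data known. Of the lists, 47 were written from the study and general knowledge, and 5 (ribosomal proteins, endoplasmic reticulum, axonal cytoskeleton, fast-spiking neurons, ubiquitin) after the calls were seen. Genes named are the 12 higher and 12 lower with the largest fold change among called genes that have a proper symbol and whose log2 CPM averages 1 or more, called members of the 47 lists, the 10 with the smallest p, and a fixed set (Foxb1, Esr1, Pgr, Cyp19a1, Cyp51, Gnrh1, Kiss1, Oxt, Avp, Gal, Pparg and Mkrn3); others were chosen after their values were seen, and some genes that the rule takes are not reported here. Replicates differed by more than counting noise (chi-square per degree of freedom 5.92 to 18 over 20 pairs), so none is a library deposited again. At 12601314 to 19554963 counted reads, 1 read is under 0.1 CPM, and intervals from counts would cover counting error only. Promoters came from RefSeq (GRCr8), matched by identifier, symbol or synonym for 10930 of the 14335 genes tested.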

Additional observations from a re-analysis of the deposited data

Results flagged for a closer look

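In 134 groups of 5 libraries checked for a library standing apart (Dixon's ratio above 0.71), 7 were found, and chance gives about 1 in 20. Control replicate 4 accounted for 4 of them: Nrgn at 109.5 CPM (89.04 to 90.58 in the other 4), Foxb1 at 10.95 CPM (1.739 to 3.966), the summed mammillary and posterior hypothalamic markers at 58.57 CPM (3.801 to 5.262) and the summed mediobasal and lateral hypothalamic markers at 1707 CPM (71.26 to 107.5). In K3, Pvalb stood apart in replicate 1 (7.978 CPM against 2.925 to 4.337), Calm2 (ENSRNOG00000016770) in replicate 3 (819 CPM against 906.5 to 934.4) and Shh in replicate 4 (4.76 CPM against 6.259 to 6.765).

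The effect of K3 differed between the POA and the MBH for 26 of 59 named genes by the interaction test, 22 with a lower and 4 with a higher fold change in the POA. As differences of log2 fold changes (POA minus MBH), the lower ones were Cdk5r2 -0.819, Cacng7 -0.828, Gtf2f1 -0.664, Nrgn -0.473, Calm2 -1.06 (ENSRNOG00000030871) and -0.635 (ENSRNOG00000016770), Rab3a -0.494, Nudc -1.17, Bean1 -1.01, Vamp2 -0.385, Shank1 -0.813, Ubald2 -1.58, Cabp1 -1.38, Nefh -1.63, S100a13 -1.24, Sc5d -0.326, Mt-co2 -0.682, Pvalb -3.38, Cacng3 -0.681, Cyp51 -0.785, Oxt -3.7 and Avp -2.59. The higher ones were Pcgf5 0.973, D430019H16Rik 1.76, Zfp474 1.44 and Esr1 1.66. Of these 26, Esr1, Cyp51, Oxt and Avp were not called in the POA, and their log2 fold changes in the MBH were -1.33, 0.593, 4.15 and 2.72. Thalamus markers also differed between the K3 and control libraries of the MBH, as given above, and the part of this in these differences was not tested. The fit included control replicate 4 of the POA and took libraries of the same rat number as independent. Differences of single genes are not given here without that library or with the rat number as a block.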

How the results depend on the processing

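The 285 calls became 856 with DESeq2 on the same libraries, 808 with all 7 groups in the fit, 1101 with DESeq2 over control and KTZ groups and 89 with the replicate block, and ranged from 42 to 622 with each library left out. The calls of members of the 47 lists, 25 as reported, became 62, 50, 72 and 7 in the same order and ranged from 5 to 42. Without control replicate 4, DESeq2 called 859 genes against 279. For the doses, where edgeR called 0 genes, DESeq2 called 1 between K6 and K3 and 14 between K12 and K3, and edgeR called 0 to 1 and 0 to 2 with single libraries left out. The excess of reads in K3 (3256319.2 per library) ranged from 2635743.8 to 3777952.2 with libraries left out, with exact p from 0.0238 to 0.0714. The count for the difference between tissues stayed within 1.5 times (3806 to 6191, and 3867 with the rat number as a block).

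The replicate numbers do not pair the samples: same-numbered K3 and control libraries correlated at -0.14 to 0.18 in their deviations from the group means, and 1 of 5 pairs was best with its own number. With the replicate block, 8 ribosomal protein genes and 0 of the endoplasmic reticulum list were called higher, and 5 genes of the axonal, 1 of the synaptic vesicle and 0 of the potassium channel list lower. Of the 48 named called genes, 14 stayed called with each library left out, 33 without control replicate 4, and 0 reversed in any alternative. Of the 11 named genes not called, 3 reversed, with values close to 0. With thinned libraries Mkrn3 (0.030) and Kiss1 (-0.017) reversed. With libraries left out the log2 fold change ranged from -0.084 to 0.54 for Avp, from -0.15 to 0.067 for Mkrn3 and from -0.065 to 0.65 for Kiss1. The causes were not tested. Genes near 1 CPM, such as Kiss1, rest on few reads at these depths.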

Other observations

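Other gene groups of the POA were mostly without calls. The thyroid hormone list, the ionotropic glutamate receptor list and the heat shock and cochaperone list had 1 called gene each, Nrgn, Shank1 and Nudc, all lower, of 14, 28 and 30 tested. Over all genes, 1.3% were called lower. Without control replicate 4, each of these lists again had 1 gene called lower. Of 43 genes of the CREB and cAMP pathway edgeR called 0, with 9 at an unadjusted p under 0.05 and 4 called by DESeq2. Of 36 genes of IGF-1 and insulin signaling it called 0, with 4 and 2 by the same measures, and of 33 genes of PPAR receptors and targets 0, with 3 and 1. Of 21 clock genes 0 were called in all libraries and 1, higher, without control replicate 4, with 6 at an unadjusted p under 0.05 and 2 called by DESeq2. Of 23 genes of GABA synthesis, transport and receptors 0 were called, with 4 and 2, and of 23 genes of the unfolded protein response 0 by either tool, with 4 at an unadjusted p under 0.05. Without control replicate 4, edgeR called 0 in the CREB, IGF-1, PPAR, GABA and unfolded protein lists. In that order, 9, 6, 1, 5 and 4 genes had an unadjusted p under 0.05.

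Tmsb10, a small actin-binding protein, was called lower at a level near 1 CPM (1.095 to 1.983 CPM in control and 0.2795 to 1.134 CPM in K3, log2 fold change -1.49 ± 0.34, adjusted p = 0.0441). Igf2, made by meninges and choroid plexus, was highest in control replicate 4, at 190.9 CPM against 50.1 to 116 CPM in the other control libraries and 49.88 to 101.4 CPM in K3, and was not called (adjusted p = 0.334). Both were chosen after their values were seen.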
